A study of Mus musculus with 86 samples.

Results

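Macrophages from the peritoneal cavity of mice were compared in 2 states: thioglycollate-elicited macrophages (TGEM) and resident large peritoneal macrophages (LPM). The comparison rests on 4 RNA-seq libraries of 86 samples in the series, 2 of TGEM and 2 of LPM, chosen by population, strain and treatment alone. All 4 come from C57BL6/J mice and are labelled as untreated; neither age nor sex of the animals is given. TGEM were drawn into the peritoneum by thioglycollate, an irritant broth, and per the protocol were handled as cultured cells, from which medium was removed before a wash and scraping; dose, day of harvest and time in culture were not found in the labels. LPM were stained with antibodies and sorted, and their RNA samples were sorted directly after staining. Elicitation and handling (cultured or sorted cells) therefore cannot be told apart in any difference given here. Nothing says that replicates came from separate animals, so p-values measure a spread between libraries, which may be technical. That spread was estimated over 10 C57BL6/J libraries, not from the 4 of TGEM and LPM alone. The series also profiled small peritoneal macrophages (SPM), bone marrow-derived macrophages (BMDM) and microglia of the same strain. LPM of NOD/ShiLtJ and of SPRET/EiJ mice were profiled too. All of these are used below for single comparisons of values. In addition, 6 SPM, BMDM and microglia libraries entered the fit that gave standard errors and p-values. The factor PU.1 and the histone marks H3K27ac and H3K4me2 were mapped by ChIP-seq.

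As background, LPM are the long-lived macrophages of the resting cavity. Their identity depends on the transcription factor GATA6, which retinoic acid from the surrounding tissue induces, and they carry Tim4, a receptor for phosphatidylserine on dying cells. Macrophages that gather after thioglycollate derive largely from blood monocytes and are known for their size, their scavenging and their many lysosomes.

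A value in the text is a gene's read number per 10000000 mapped reads of its library, with introns counted, so it is not corrected for gene length and is used only between libraries. Where 2 values are given for a population, they are replicate 1, from the table of polyA libraries, and replicate 2, from the table of replicates. Log2 folds are TGEM over LPM on the log2(value + 1) scale, with the standard error (SE) from limma after "±". Genes count as called where the p, adjusted by Benjamini and Hochberg, was under 0.05 and the populations differed by 1 or more on the log2 scale.

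The libraries held 27000000 and 4030000 mapped reads in TGEM, and 14980000 and 19550000 in LPM, so TGEM replicate 2 is the shallowest. Replicate 2 is described as RiboZero RNA (depleted of ribosomal RNA) in both populations. The sample titles, however, name Ribozero for LPM replicate 2 and not for TGEM replicate 2. In its values, too, TGEM replicate 2 stood apart from LPM replicate 2. Over 68 histone genes, whose mRNA lacks a poly(A) tail, the sum was 2947 and 837 in TGEM, against 654 and 5365 in LPM. In the table of replicates it was 8198 in SPM and 3800 in microglia, both titled Ribozero. It was 1373 in BMDM, which is not so titled. Any difference in preparation cannot be told apart from population between the replicate 2 libraries, and it was not tested. The snoRNA host gene Gas5 stood at 562 and 271 in TGEM, against 518 and 19891 in LPM, and Snhg1, another host, at 193 and 94.4 in TGEM, against 166 and 36011 in LPM; both genes were chosen after their values were seen. In all, 161 genes were at least 16-fold lower in TGEM between the replicate 2 libraries and within 2-fold between the replicate 1 libraries, and 0 of them were called. Xist, which marks female cells, stood at 1.48 and 1738 in TGEM and at 57.4 and 4.60 in LPM. The Y-linked gene Ddx3y stood at 835 and 186 in TGEM and at 1293 and 993 in LPM, and genes of chromosomes X and Y were left out of the comparison.

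Core macrophage genes were present in all 4 libraries. Lyz2, the macrophage lysozyme gene, which can share reads with its near-copy Lyz1, stood at 98317 and 101740 in TGEM, against 209240 and 103020 in LPM, and Csf1r, the receptor for M-CSF, at 6946 and 6652 in TGEM, against 10492 and 6539.5 in LPM; neither was called. Emr1, which encodes F4/80, was lower in TGEM, at 2907 and 2818 in TGEM, against 21760 and 21109 in LPM (log2 fold -2.90 ± 0.48, adjusted p = 0.0021). Of 20 core macrophage genes tested, 7 were called higher in TGEM and 3 lower (1 to 7 higher and 1 to 3 lower without any 1 library). The LPM markers Timd4, Alox15, Icam2 and Gata6 were present in both LPM libraries (values below), as the label asks.

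Markers of other cells are read against the 27.1% of all tested genes that were called, 12.6% higher and 14.4% lower in TGEM. All 14 mesothelial and fibroblast markers tested were called higher in TGEM (8 to 13 of 14 when any 1 library was left out), with a sum of 4231 and 6138 in TGEM, against 45.4 and 29.2 in LPM, where 6 and 5 of the 14 were at 0. Col1a2, a chain of type I collagen, stood at 1107 and 1269 in TGEM, against 0.668 and 0 in LPM, and Wt1, a mesothelial transcription factor, at 65.2 and 112 in TGEM, against 1.33 and 1.02 in LPM. Their median log2 fold was 5.10, or 4.73 with the 3 genes at 0 in LPM set to the least fold that 3 reads per library allow. Of 10 B cell markers 4 were called lower in TGEM (1 to 7 without any 1 library) and 1, Cd22, higher; the list summed to 1335 and 2381 in TGEM, against 867 and 1583 in LPM. Of 11 neutrophil markers 4 were called higher in TGEM (1 to 3 without any 1 library), namely S100a8, Ltf, Mmp8 and Cxcr2. S100a8 stood at 149 and 107 in TGEM, against 18.027 and 6.14 in LPM (log2 fold 3.45 ± 0.62), while its partner S100a9 stood at 0 and 0 in TGEM, against 0.668 and 2.56 in LPM and was not called. The granule protein gene Ngp stood at 0 and 0 in TGEM, against 3.34 and 2.05 in LPM and was not called. The list summed to 1027 and 1343 in TGEM, against 2621 and 1373 in LPM, most of it from Csf3r. Of 20 markers of SPM, monocytes and dendritic cells, 3 were called higher (Itgax, Chil3 and Napsa) and 6 lower (1 to 2 higher and 1 to 5 lower without any 1 library). Of 9 T and NK cell markers 2 (22.2%) were called, and of 13 mast cell, basophil and eosinophil markers 2 (15.4%), all of them lower in TGEM; of 7 endothelial markers 1 was called in each direction (28.6% in all), and of 7 erythroid and platelet markers 0. These 4 shares are near or below that over all genes. The part of these cells in the results below was not tested. In bulk RNA, fewer cells of a type and less RNA per cell cannot be told apart.

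Across 18626 genes tested, 5039 (27.1%) were called, 2352 (12.6%) higher and 2687 (14.4%) lower in TGEM. The counts of called members in each gene list below are to be read against these shares. Whether a list differs from them was not tested. The 2 TGEM values lay wholly above or below the 2 LPM values at 11446 genes (61.5%), above at 5439 (29.2%) and below at 6007 (32.3%). The median log2 fold over all genes was -0.02; the values are scaled to mapped reads, so it does not bear on the amount of RNA per cell. Of the genes called higher, 2131 differed by at least 2-fold the same way between the replicate 1 libraries and between the replicate 2 libraries, and so did 2425 of those called lower. The call was large at many genes: 355 of the 2352 were at least 16-fold higher in TGEM and 399 of the 2687 at least 16-fold lower. Leaving out TGEM replicate 2 lowered the count of genes called higher to 1332. Leaving out LPM replicate 1 gave 799 higher and 968 lower, and leaving out LPM replicate 2 gave 668 higher and 850 lower.

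**Figure D1:**
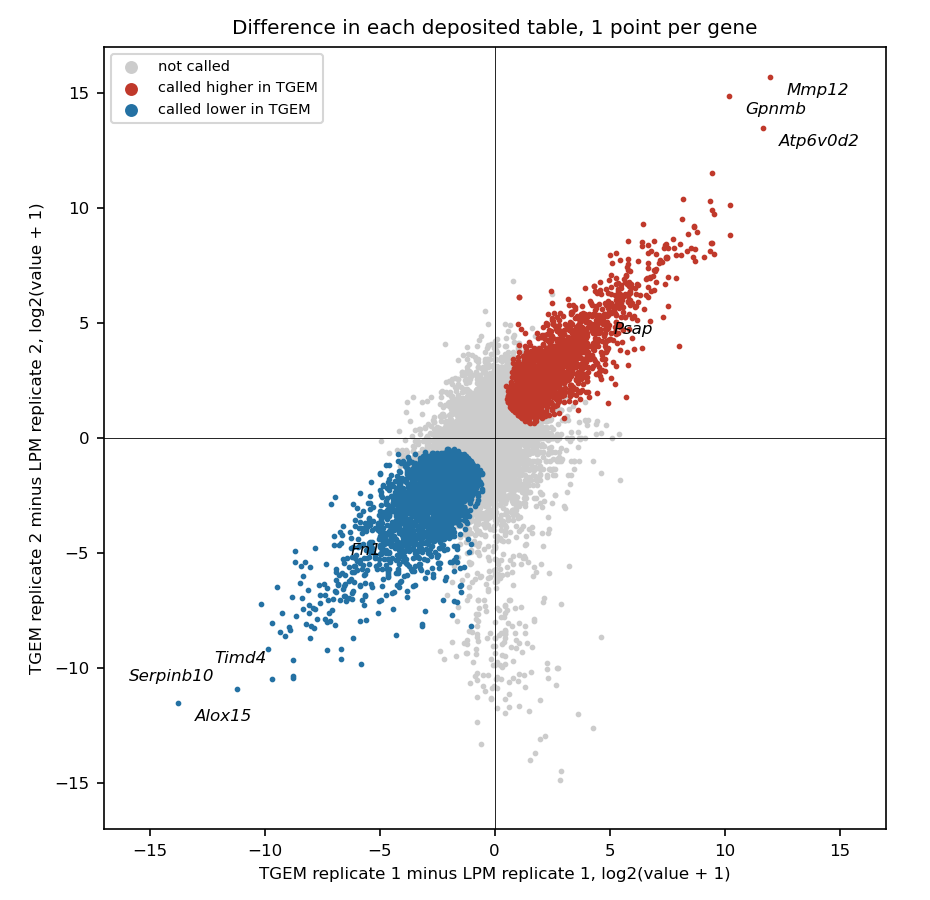
Each point is 1 of 18626 genes; the horizontal axis gives TGEM minus LPM in log2(value + 1) for the replicate 1 libraries and the vertical axis the same for the replicate 2 libraries. The 2352 red and 2687 blue genes were called. The grey tail running down near 0 on the horizontal axis holds genes that differed between the replicate 2 libraries alone.

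The genes with the largest differences were abundant in one population and scarce in the other. The macrophage elastase Mmp12, at chr9:7347374-7360461 (mm10), stood at 59839 and 81332 in TGEM, against 14.021 and 0.512 in LPM (log2 fold 13.84 ± 1.02, adjusted p = 3.8e-05). Atp6v0d2 (chr4:19876838-19922566), the macrophage and osteoclast form of the d subunit of the vacuolar proton pump, stood at 18175 and 17500 in TGEM, against 4.67 and 0.512 in LPM (log2 fold 12.57 ± 0.77, adjusted p = 1.6e-05). Gpnmb (chr6:49036518-49058182), a transmembrane glycoprotein of lysosomes and phagosomes, reached 268300 and 278640 in TGEM, against 232 and 8.19 in LPM (log2 fold 12.53 ± 1.25, adjusted p = 0.00015), 2274-fold higher in TGEM by the means. In each of the 3 genes both TGEM libraries lay far above both LPM libraries, while the LPM libraries differed from each other by a larger ratio than the TGEM libraries did.

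The other 9 genes of the 12 with the largest positive folds had log2 folds of 8.95 to 10.48, with a highest adjusted p of 0.00017. Dio2, the deiodinase that activates thyroid hormone, stood at 1162 and 2929.9 in TGEM, against 0.668 and 0 in LPM (log2 fold 10.48 ± 0.82), and Pdpn, the lectin ligand podoplanin, at 2028 and 2262 in TGEM, against 0.668 and 1.02 in LPM (log2 fold 10.19 ± 0.85). Cd200, ligand of an inhibitory receptor of myeloid cells, stood at 2699 and 3004 in TGEM, against 2.67 and 2.56 in LPM (log2 fold 9.62 ± 0.84). Stra6l, a receptor for retinol-binding protein, stood at 1199.9 and 1606 in TGEM, against 0 and 2.56 in LPM. The neuropeptide gene Npy stood at 1056 and 1358 in TGEM, against 2.67 and 0 in LPM. Both were at or close to 0 in LPM. The tetraspan gene Tm4sf19 stood at 1176 and 961 in TGEM, against 0.668 and 0 in LPM. The small GTPase gene Rhov stood at 683 and 598 in TGEM, against 0.668 and 0 in LPM. Col1a2 (values above) and the secreted glycoprotein gene Fstl1, at 1175 and 1818 in TGEM, against 0.668 and 4.09 in LPM, complete the set, and Col1a2 is also a fibroblast marker. In Dio2, Col1a2, Tm4sf19 and Rhov the 2 LPM libraries held 1 read in all, so the size of the fold depends on the 1 added before the logarithm.

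In the other direction, Alox15 (chr11:70344147-70352031), a lipoxygenase that oxidises arachidonic and linoleic acid, stood at 2.59 and 7.45 in TGEM, against 50316 and 24567 in LPM (log2 fold -12.64 ± 1.39, adjusted p = 0.00026). Timd4 (chr11:46810799-46844333), which encodes Tim4, stood at 4.81 and 2.483 in TGEM, against 4732 and 4988 in LPM (log2 fold -10.08 ± 0.58, adjusted p = 1.5e-05), 1332-fold lower in TGEM by the means. Serpinb10, a serine protease inhibitor, had 0 reads in both TGEM libraries, against 2322 and 1950 in LPM, and was at least 499-fold lower in TGEM if 3 reads per library are allowed as the floor. The signalling ligand Wnt2 stood at 1.85 and 0 in TGEM, against 1257 and 1373 in LPM (log2 fold -9.60 ± 0.73), and Nt5e, the ectonucleotidase CD73, at 2.96 and 0 in TGEM, against 1741 and 1307 in LPM (log2 fold -9.57 ± 0.77). Vmn2r26, a gene of the vomeronasal receptor family (whose members can share reads), stood at 1.11 and 2.483 in TGEM, against 1937 and 2002 in LPM (log2 fold -9.51 ± 0.72). The TGEM libraries lay below the LPM libraries at every one of these genes, as the rule for choosing them required. The gap was 2 or more orders of magnitude.

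Mlxipl, the carbohydrate-response factor ChREBP, stood at 2.59 and 2.483 in TGEM, against 2315 and 1198 in LPM. Ltbp1, which holds latent TGF-beta in the matrix, stood at 34.4 and 79.5 in TGEM, against 19623 and 31473 in LPM. Coagulation factor V (F5) stood at 29.6 and 99.3 in TGEM, against 34912 and 15059 in LPM. These 3 encode a transcription factor and secreted proteins. Garnl3 stood at 5.18 and 19.9 in TGEM, against 5088 and 5462 in LPM. Adgb (androglobin) stood at 5.92 and 19.9 in TGEM, against 4219.6 and 4105 in LPM. Pi16, a peptidase inhibitor, stood at 0.37 and 0 in TGEM, against 661 and 328 in LPM. The highest adjusted p among these 6 was 0.0011, and 0 of the 24 genes lost the call under any alternative run.

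**Figure D2:**
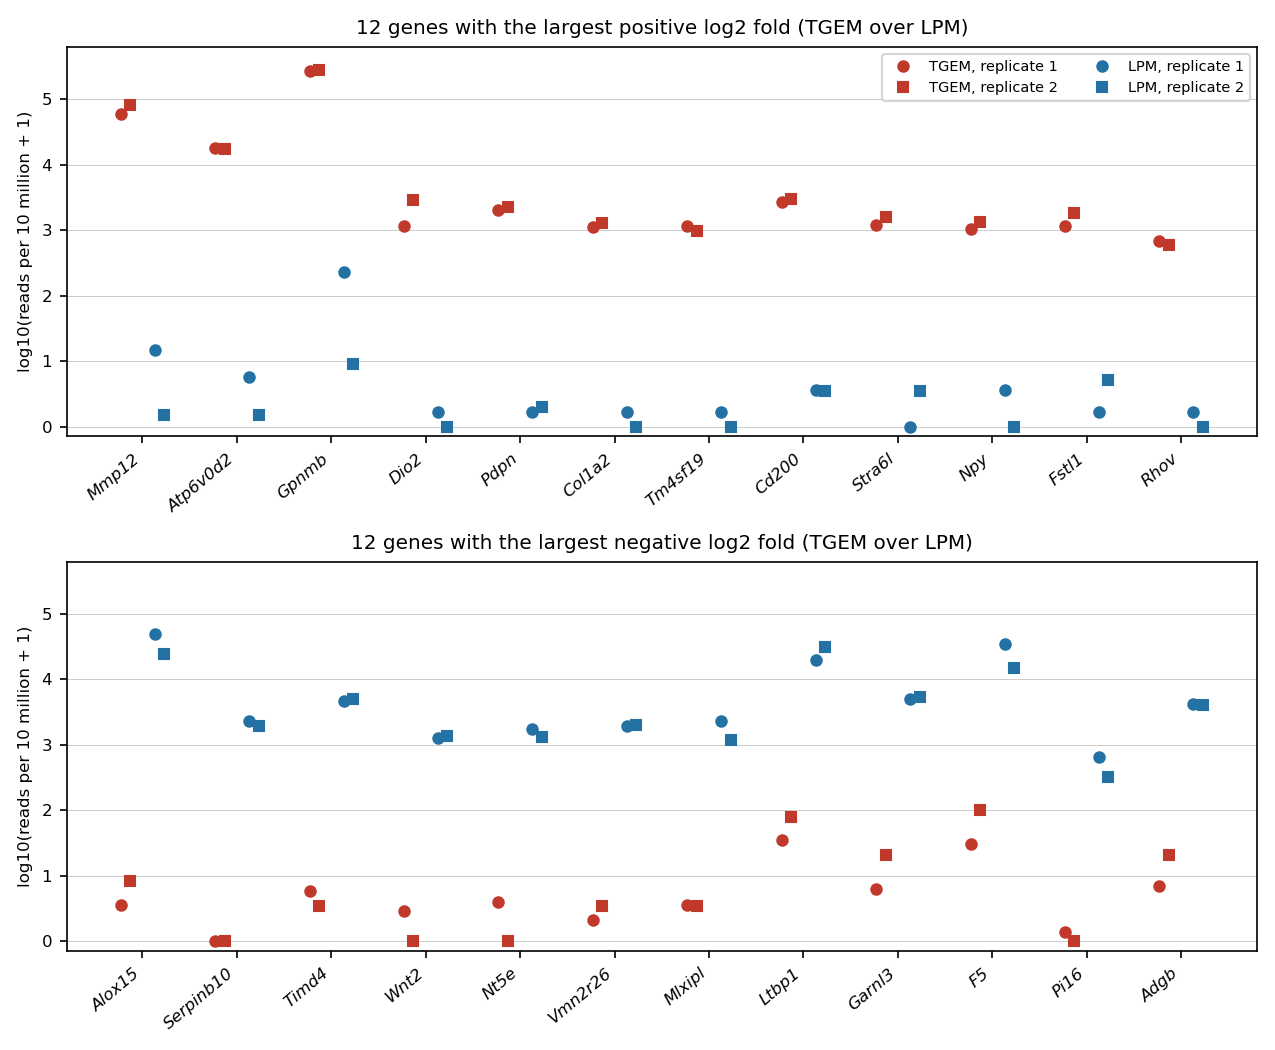
Points are single libraries (circles replicate 1, squares replicate 2), TGEM in red left of LPM in blue, on a log10 axis of reads per 10000000 plus 1; the upper panel holds the 12 genes with the largest positive and the lower panel the 12 with the largest negative log2 fold. The genes were chosen for not overlapping between the populations, and LPM values of the upper panel are mostly below 10 reads per 10000000.

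Of 24 genes listed as LPM markers, 23 were tested (Vsig4 lies on the X chromosome). In TGEM, 19 (82.6%) were called lower and 0 higher, against 14.4% of all tested genes called lower. The median log2 fold was -6.35, against -0.02 over all genes. This list too was drawn up with earlier results of these data known and is no independent evidence of its direction. Between 16 and 17 were called lower when any 1 library was left out. Gata6 stood at 103 and 132 in TGEM, against 2185 and 2086 in LPM (log2 fold -4.19 ± 0.72, adjusted p = 0.0025), 18.2-fold lower in TGEM by the means, a call that ended without TGEM replicate 1 or LPM replicate 2. Its TGEM level was not at the floor, unlike that of Timd4. The adhesion molecules Icam2 and Selp (P-selectin) stood at 35.2 and 39.7 in TGEM, against 4266 and 2316 in LPM and at 21.8 and 59.6 in TGEM, against 8167 and 4728 in LPM. Prg4, the lubricant proteoglycan lubricin, stood at 97.0 and 164 in TGEM, against 68691 and 14528 in LPM (log2 fold -7.96 ± 0.92). Tgfb2 stood at 48.9 and 91.9 in TGEM, against 5398 and 5694 in LPM. The inflammasome sensor gene Naip1, which can share reads with its paralogs, stood at 67.0 and 146 in TGEM, against 1741 and 1699 in LPM. The populations overlapped at none of these 5 genes, all of them picked from called members. Over all tested genes, the populations did not overlap at 61.5%. The 4 members that did not pass were Laptm5, Cd93, F10 and Saa3. Of these, Laptm5 stood at 17307 and 17177 in TGEM, against 22519 and 9106 in LPM. Cd93 stood at 4034 and 8779.8 in TGEM, against 3720.2 and 2604 in LPM.

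The list of elicited macrophage markers split. Of 20 members, 15 were called higher in TGEM and 4 lower, with a median log2 fold of 6.05. Like the LPM list, it was drawn up with earlier results of these data known and is no independent evidence of its direction. Besides Mmp12, Gpnmb and Atp6v0d2, the collagenolytic cathepsin Ctsk stood at 8379 and 2908 in TGEM, against 11.3 and 7.16 in LPM (log2 fold 8.94 ± 0.74). The integrin chain gene Itgax (CD11c) stood at 5011 and 8196 in TGEM, against 11.3 and 13.3 in LPM (log2 fold 8.91 ± 0.56). Spp1 (osteopontin) stood at 27541 and 13907 in TGEM, against 64.1 and 67.0 in LPM (log2 fold 8.20 ± 0.74). Both TGEM libraries lay far above both LPM libraries at all 3. The cytokine receptor gene Il7r stood at 8500.4 and 9602 in TGEM, against 22.0 and 30.7 in LPM (log2 fold 8.39 ± 0.42). Lgals3 (galectin-3, also called Mac-2) stood at 79858 and 69362 in TGEM, against 1376 and 701 in LPM (log2 fold 6.24 ± 0.94). The lipid receptor gene Trem2 stood at 14883 and 8949 in TGEM, against 264 and 148 in LPM (log2 fold 5.86 ± 0.31).

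The 4 members that fell in TGEM were Fn1, Arg1, Clec4e and Ccr2. Fibronectin (Fn1) was the most abundant of them, at 3562 and 9847 in TGEM, against 448130 and 188220 in LPM (log2 fold -5.62 ± 1.37, adjusted p = 0.014). Arginase 1 (Arg1) stood at 264 and 189 in TGEM, against 2410.3 and 2629 in LPM (log2 fold -3.49 ± 0.34, adjusted p = 0.00013). The C-type lectin Mincle (Clec4e) stood at 224 and 350.1 in TGEM, against 1850.1 and 1015 in LPM. Ccr2, the receptor that draws monocytes from blood, stood at 120.4 and 69.5 in TGEM, against 198 and 277 in LPM. Between 1 and 2 members of the list were called lower when any 1 library was left out.

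**Figure D3:**
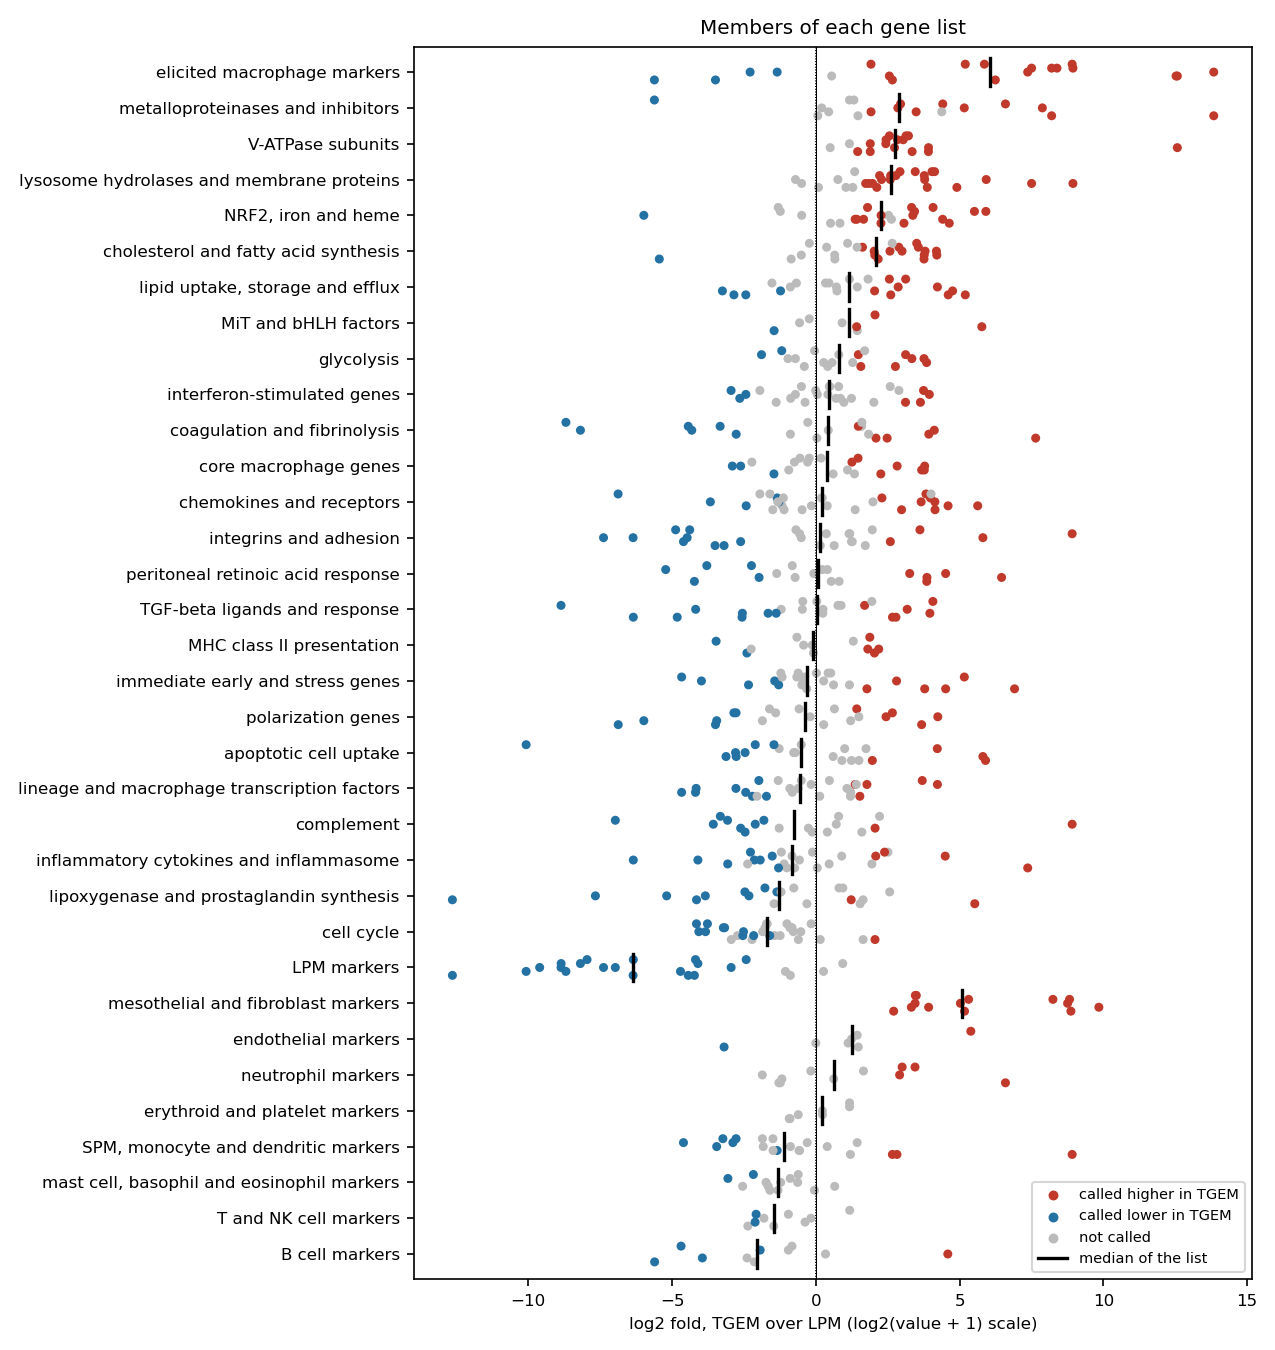
Each point is a tested member of a gene list at its log2 fold, TGEM over LPM; red members were called higher in TGEM, blue lower, grey not called, and the black bar is the median of the list. Lists of macrophage programs are ordered by median from 6.05 (elicited macrophage markers) to -6.35 (LPM markers), with markers of other cell types under them, led by mesothelial and fibroblast markers at 5.10.

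Of 28 hydrolases and membrane proteins of the lysosome tested, 21 were called higher in TGEM and 0 lower, with a median log2 fold of 2.60. Without any 1 library 10 to 22 were called higher and 0 to 1 lower. Psap, precursor of the saposins that help to degrade sphingolipids, stood at 370860 and 307480 in TGEM, against 16823 and 7552 in LPM (log2 fold 4.90 ± 0.77, adjusted p = 0.0017). The cathepsin genes Ctsb and Ctsd, which encode lysosomal proteases, stood at 208900 and 190660 in TGEM, against 15546 and 8364 in LPM and at 229270 and 192160 in TGEM, against 21207 and 9651 in LPM. Ctsl stood at 109830 and 30282 in TGEM, against 1018 and 883 in LPM (log2 fold 5.93 ± 0.69). In each of them the lower TGEM library lay above the higher LPM library. Lipa, the acid lipase that frees cholesterol from its esters, stood at 33992 and 25468 in TGEM, against 2251 and 1421 in LPM (log2 fold 4.04 ± 0.45). The membrane glycoprotein gene Lamp1 stood at 35804 and 31459 in TGEM, against 10271 and 5064 in LPM (log2 fold 2.22 ± 0.48). The tetraspanin gene Cd63 stood at 5546 and 3523 in TGEM, against 42.1 and 12.8 in LPM (log2 fold 7.50 ± 0.52). All 3 were called higher in TGEM. Of the 7 that did not pass, Grn stood at 16272 and 23243 in TGEM, against 14335 and 4051 in LPM. Glb1, a galactosidase, was on the other side of 0, at 1082 and 2016 in TGEM, against 3428 and 1699 in LPM (log2 fold -0.71 ± 0.51, adjusted p = 0.33).

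The proton pump that acidifies lysosomes behaved alike: 15 of 17 subunit genes were called higher in TGEM and 0 lower, with a median log2 fold of 2.74 (12 to 15 without any 1 library). Leaving Atp6v0d2 aside, the called subunits had log2 folds of 1.45 (Atp6v1h) to 3.92 (Tcirg1, which encodes an a subunit). Tcirg1 stood at 14306 and 10923 in TGEM, against 1068 and 637 in LPM. Atp6v1c1 stood at 8383 and 5519.6 in TGEM, against 495 and 409 in LPM. The catalytic A subunit gene Atp6v1a stood at 14104 and 9622 in TGEM, against 1813 and 1465 in LPM. Atp6v0d1, the other d subunit gene, stood at 4396 and 3322 in TGEM, against 1244 and 852 in LPM (log2 fold 1.89 ± 0.35). Both d subunits were thus called higher, while their folds differed by more than 10 on the log2 scale. The a subunit genes Atp6v0a2, at 395 and 675 in TGEM, against 509 and 262 in LPM, and Atp6v0a4, at 1.11 and 7.45 in TGEM, against 1.33 and 0.512 in LPM, did not pass.

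Transcription factors of the MiT family drive lysosomal genes through a short E-box. Of the 8 genes listed, Tfeb stood at 1001 and 1090.0 in TGEM, against 444 and 343 in LPM (log2 fold 1.42 ± 0.42) and was called higher, while Mitf, at 1248 and 1157 in TGEM, against 2201 and 4913 in LPM (log2 fold -1.45 ± 0.40), was called lower. Both calls ended without the replicate block and without any 1 of TGEM replicate 2, LPM replicate 1 and LPM replicate 2. Bhlhe41, a repressor that binds E-boxes, stood at 2600.0 and 2816 in TGEM, against 55.4 and 42.5 in LPM (log2 fold 5.77 ± 0.52, adjusted p = 9.2e-05), and its relative Bhlhe40, at 4245 and 3945 in TGEM, against 2194 and 1035 in LPM, did not pass.

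The E-box letters TCACGTG, searched on both strands in the 250 bases before and 50 after each start, were in 9 of the 33 promoters of lysosomal and proton pump genes that RefSeq lists, of 45 (27.3%). They were in 7.80% of the promoters of genes called higher in TGEM, 5.10% of those called lower and 5.16% of all 13215 promoters matched to the 18626 tested genes. AGGAAGT, the core of PU.1 sites, was in 10.1% of promoters of genes called higher, 10.7% of those called lower and 9.28% of all, and the GATA letters AGATAA in 6.56%, 7.19% and 7.53%. The shares are descriptions with no test, and letters in a promoter do not show that a factor binds there. The 250 bases before the start are shown for 4 genes of these lists that hold the E-box at 2 or more places. They come from RefSeq (GRCm38.p6) and run 5′ to 3′ on the gene's strand, with the E-box (on either strand) in capitals; where it is 8 letters long, matches on both strands overlap. The promoters lie at chr8:3500269-3500518 (plus strand) for Mcoln1, a calcium channel of lysosomes, chr8:13158911-13159160 (plus) for Lamp1, chr7:142387828-142388077 (minus) for Ctsd and chr4:117887330-117887579 (minus) for Atp6v0b, a proton pump subunit.
Mcoln1: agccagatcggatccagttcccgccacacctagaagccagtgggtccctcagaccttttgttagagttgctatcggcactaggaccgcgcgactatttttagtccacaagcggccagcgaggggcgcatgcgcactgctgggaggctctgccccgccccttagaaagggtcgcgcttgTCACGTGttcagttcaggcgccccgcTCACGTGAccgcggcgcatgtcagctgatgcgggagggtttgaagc
Lamp1: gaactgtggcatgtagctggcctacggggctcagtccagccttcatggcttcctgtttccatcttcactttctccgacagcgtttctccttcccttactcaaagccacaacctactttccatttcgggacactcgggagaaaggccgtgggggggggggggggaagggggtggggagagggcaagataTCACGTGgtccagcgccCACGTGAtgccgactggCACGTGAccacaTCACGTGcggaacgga
Ctsd: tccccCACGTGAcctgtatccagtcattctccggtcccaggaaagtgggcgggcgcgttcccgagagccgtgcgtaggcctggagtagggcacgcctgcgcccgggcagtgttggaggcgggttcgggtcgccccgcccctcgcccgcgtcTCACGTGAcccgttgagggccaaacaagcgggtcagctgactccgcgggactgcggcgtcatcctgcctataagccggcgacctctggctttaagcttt
Atp6v0b: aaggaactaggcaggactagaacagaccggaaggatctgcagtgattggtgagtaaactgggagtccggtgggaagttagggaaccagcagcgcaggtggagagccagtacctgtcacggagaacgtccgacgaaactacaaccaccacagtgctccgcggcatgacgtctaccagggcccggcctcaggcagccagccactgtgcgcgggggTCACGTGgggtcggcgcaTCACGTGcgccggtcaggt
The E-box stands at 4 separate places in Lamp1 and at 2 in each of the other 3. In the RNA, Mcoln1 stood at 774 and 1172 in TGEM, against 319 and 183 in LPM (log2 fold 1.97 ± 0.52). Atp6v0b stood at 5452 and 3210.5 in TGEM, against 984 and 601 in LPM (log2 fold 2.44 ± 0.38). Ctsd and Lamp1 are given above, and all 4 were called higher in TGEM. So were 36 of the 45 lysosomal and proton pump genes. Of these 36, 27 had a promoter, and 7 of the 27 (25.9%) held the E-box, near the 27.3% over all 45. Glb1 and Gaa held it and were not called. The 27.3% includes these 27 promoters, and few uncalled genes of the lists had a promoter. Whether the E-box goes with the call within these lists was therefore not tested.

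Of 23 genes of lipid uptake, storage and efflux, 9 were called higher and 4 lower in TGEM, with a median log2 fold of 1.17 (7 to 9 higher and 1 to 3 lower without any 1 library). The scavenger receptor gene Cd36 stood at 42189 and 23797 in TGEM, against 6888 and 3935 in LPM (log2 fold 2.61 ± 0.37). The lipid droplet coat gene Plin2 stood at 16570 and 14632 in TGEM, against 2065 and 1544 in LPM (log2 fold 3.12 ± 0.39). The fatty acid carrier gene Fabp5 stood at 13265 and 5678 in TGEM, against 299.8 and 185 in LPM (log2 fold 5.20 ± 0.47). All 3 were called higher. The lipid sensors Pparg and Nr1h3 (LXR alpha) stood at 965 and 941 in TGEM, against 30.7 and 47.6 in LPM and at 515 and 511 in TGEM, against 34.1 and 20.461 in LPM. Both were called higher in TGEM. The 4 that fell were Cd5l, Msr1, Abca1 and Mylip. Cd5l, a secreted scavenger protein, stood at 1565 and 663 in TGEM, against 12791 and 7352 in LPM (log2 fold -3.25 ± 0.51). Msr1, the class A scavenger receptor gene, stood at 2167 and 1383 in TGEM, against 13202 and 11814 in LPM (log2 fold -2.85 ± 0.53). Abca1, a cholesterol exporter, stood at 871 and 1371 in TGEM, against 6280.0 and 5579 in LPM (log2 fold -2.44 ± 0.51). The exporters Abca1 and Abcg1, at 3341 and 4122 in TGEM, against 1016 and 796 in LPM (log2 fold 2.04 ± 0.36), thus lay on opposite sides.

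Cholesterol and fatty acid synthesis genes were called higher at 14 of 24 members and lower at 1, with a median log2 fold of 2.11; 5 to 10 were called higher when any 1 library was left out. Cyp51, a demethylase of the sterol pathway, stood at 681 and 1879.6 in TGEM, against 50.7 and 71.6 in LPM (log2 fold 4.21 ± 0.52). Fdft1, which makes squalene, stood at 2093 and 3213 in TGEM, against 221 and 162 in LPM (log2 fold 3.77 ± 0.37). TGEM replicate 2 was the higher TGEM library at both. The exception was Acaca, the carboxylase that starts fatty acid synthesis, at 57.8 and 218 in TGEM, against 4213 and 5802 in LPM (log2 fold -5.44 ± 0.43, adjusted p = 5.5e-05). Fasn, the fatty acid synthase gene, at 103 and 901 in TGEM, against 654 and 472 in LPM, did not pass.

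Of 20 lipoxygenase and prostaglandin genes, 9 were called lower in TGEM and 2 higher, with a median log2 fold of -1.28. Next to Alox15, Alox5, the first enzyme of leukotriene synthesis, stood at 8.89 and 19.9 in TGEM, against 3269 and 2602 in LPM (log2 fold -7.67 ± 0.91, adjusted p = 0.00037), and Ltc4s, which makes leukotriene C4, at 59.3 and 39.7 in TGEM, against 2578 and 1264 in LPM (log2 fold -5.19 ± 0.68). Both TGEM libraries lay below both LPM libraries at these genes. Ptgs1, the constitutive cyclooxygenase gene, stood at 292 and 360.0 in TGEM, against 5791 and 3762 in LPM (log2 fold -3.84 ± 0.38). The prostacyclin synthase gene Ptgis stood at 188 and 176 in TGEM, against 4284 and 2459.5 in LPM (log2 fold -4.15 ± 0.70). The 2 that rose were Hpgds and Lta4h. Hpgds, which makes prostaglandin D2, stood at 1930.1 and 1932 in TGEM, against 39.4 and 42.5 in LPM (log2 fold 5.53 ± 0.34, adjusted p = 1.6e-05). Lta4h, which makes leukotriene B4, stood at 1238 and 1301 in TGEM, against 682 and 429 in LPM. Without any 1 library 5 to 6 were called lower.

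Uptake of dying cells uses bridging proteins and receptors, and the 21 genes listed divided into 4 called higher and 7 called lower in TGEM (3 to 5 higher and 4 to 8 lower without any 1 library). Receptors that fell included Timd4 and Mertk, at 1163 and 1122 in TGEM, against 3366 and 2924 in LPM (log2 fold -1.46 ± 0.36), with the engulfment genes Elmo1, at 634 and 769.7 in TGEM, against 3252 and 7221 in LPM, and Dock1, at 282 and 626 in TGEM, against 2802 and 4806 in LPM. Among the bridging proteins, Pros1 (protein S) fell, at 585 and 795 in TGEM, against 5386 and 4031 in LPM (log2 fold -2.77 ± 0.35), while Gas6 stood at 388 and 402 in TGEM, against 29.4 and 13.8 in LPM (log2 fold 4.22 ± 0.40). Mfge8 stood at 24383 and 20470 in TGEM, against 599.6 and 232 in LPM (log2 fold 5.90 ± 0.63, adjusted p = 0.00022). Gas6 and Mfge8 were thus called the other way from Pros1. The integrin chain gene Itgb5, whose product pairs with Itgav to bind Mfge8, stood at 2589.7 and 2704 in TGEM, against 76.8 and 27.6 in LPM (log2 fold 5.81 ± 0.41). Itgav, at 739 and 983 in TGEM, against 1254 and 1171 in LPM, did not pass.

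Complement genes were called lower at 8 of 18 members and higher at 2 (2 to 7 lower and 1 to 3 higher without any 1 library). C4b stood at 83.0 and 372 in TGEM, against 28317 and 17484 in LPM (log2 fold -6.97 ± 0.84); it has a near-identical neighbour, C4a, at 4.81 and 0 in TGEM, against 47.4 and 15.9 in LPM, with which reads can be shared, so the split between the 2 is uncertain. C1qa stood at 1899 and 1132 in TGEM, against 10422 and 6261 in LPM (log2 fold -2.46 ± 0.47). The complement receptor chains Itgam (CD11b) and Itgax (CD11c) went opposite ways, with Itgam at 4146 and 6781 in TGEM, against 45239 and 23334 in LPM (log2 fold -2.62 ± 0.63). Coagulation and fibrinolysis genes divided into 6 called lower and 6 called higher (5 to 6 lower and 3 to 5 higher without any 1 library). Next to F5, F13a1, which cross-links fibrin, stood at 190.3 and 151 in TGEM, against 3963 and 2914 in LPM. Thbs1 stood at 3132 and 1207 in TGEM, against 49218 and 36085 in LPM. Serpinb2, an inhibitor of plasminogen activators, stood at 23.0 and 29.8 in TGEM, against 9486 and 6609.6 in LPM. These 3 were called lower. The higher ones include the plasminogen activator gene Plau, at 1698 and 1452 in TGEM, against 111 and 72.1 in LPM (log2 fold 4.12 ± 0.42), and Procr, the receptor for protein C, at 295 and 340.2 in TGEM, against 0.668 and 0.512 in LPM (log2 fold 7.64 ± 0.77).

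Of 18 genes of metalloproteinases, their inhibitors and matrix proteins, 10 were called higher in TGEM and only Fn1 lower, with a median log2 fold of 2.90 (7 to 9 higher without any 1 library). Mmp14, a membrane-bound collagenase, stood at 1075 and 1609 in TGEM, against 11.3 and 1.53 in LPM (log2 fold 7.88 ± 0.95). Mmp8 stood at 161 and 211 in TGEM, against 2.67 and 0 in LPM (log2 fold 6.59 ± 0.97). Mmp19 stood at 1387 and 1991 in TGEM, against 272 and 169 in LPM (log2 fold 2.95 ± 0.45). All 3 proteases were called higher. The inhibitor gene Timp3 stood at 196 and 91.9 in TGEM, against 1.33 and 5.12 in LPM (log2 fold 5.16 ± 0.74). Fibroblast markers moved the same way as this list and their part in it was not tested. Adhesion genes divided into 4 higher and 9 lower of 25. The laminin receptor chain gene Itga6 stood at 1329.8 and 1018 in TGEM, against 30901 and 21716 in LPM (log2 fold -4.48 ± 0.39), while the fibronectin receptor chain gene Itga5 stood at 1577 and 1885 in TGEM, against 401 and 203 in LPM (log2 fold 2.59 ± 0.50).

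Chemokine genes were called higher at 9 of 29 members and lower at 5 (4 to 6 higher and 1 to 3 lower without any 1 library). Cxcr4, a chemokine receptor, stood at 1723 and 1832 in TGEM, against 44.1 and 27.6 in LPM (log2 fold 5.63 ± 0.39, adjusted p = 2.9e-05). Ccl3 and Ccl4 stood at 326 and 482 in TGEM, against 40.1 and 11.3 in LPM and at 287 and 132 in TGEM, against 24.7 and 1.53 in LPM. Ccl24, an eosinophil attractant, stood at 10.0 and 4.97 in TGEM, against 1167 and 775 in LPM (log2 fold -6.88 ± 0.67, adjusted p = 0.00014) and Pf4, platelet factor 4, at 560.3 and 320.3 in TGEM, against 8360.5 and 3487 in LPM (log2 fold -3.67 ± 0.63). Cytokine and inflammasome genes were called lower at 8 of 25 members and higher at 4 (3 to 5 lower and 3 to 5 higher without any 1 library). Of all tested genes, 14.4% were called lower and 12.6% higher, so the share called higher is near that over all genes. Inflammasome genes were among those that fell. The sensor gene Nlrp3 stood at 154 and 191 in TGEM, against 616 and 393 in LPM (log2 fold -1.52 ± 0.36). Nlrc4, another sensor, stood at 83.0 and 112 in TGEM, against 440.0 and 313 in LPM (log2 fold -1.93 ± 0.58). The adaptor gene Pycard stood at 804 and 499 in TGEM, against 1787 and 1358 in LPM. Il1rn, the antagonist of the interleukin-1 receptor, was the largest of the rises, at 2659.7 and 3319.7 in TGEM, against 30.7 and 9.21 in LPM (log2 fold 7.37 ± 0.94, adjusted p = 0.00056). Tnf stood at 427 and 117 in TGEM, against 26.7 and 2.56 in LPM (log2 fold 4.50 ± 0.74), with a call that ended without TGEM replicate 1. Il1b, at 236 and 7.45 in TGEM, against 10.0 and 4.60 in LPM, differed widely between the TGEM libraries and did not pass.

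Interferon-stimulated genes were called at 26.9% of 26 members, a share near the 27.1% over all genes. The 4 called higher (Ifit1, Ifit3, Oasl1 and Rsad2) and the 3 called lower (Oas2, Mx2 and Gbp3) had log2 folds of -2.95 to 3.95, and 0 members were called higher and 0 to 1 lower when any 1 library was left out. The class II genes H2-Aa, H2-Ab1, H2-Eb1 and Cd74 rose. Of the class II list, 0 to 4 members were called higher when any 1 library was left out. Cd74, the invariant chain, stood at 4670.5 and 4718 in TGEM, against 1078 and 984 in LPM (log2 fold 2.19 ± 0.42). The costimulatory genes Cd86, at 113 and 127 in TGEM, against 1430.1 and 1241 in LPM (log2 fold -3.47 ± 0.31), and Cd40, at 99.99 and 54.6 in TGEM, against 480.1 and 323 in LPM (log2 fold -2.40 ± 0.48), fell, and Cd80, at 367 and 191 in TGEM, against 368 and 345 in LPM, did not pass. Among genes used to describe polarization, Cd163, the haemoglobin scavenger receptor, stood at 24.1 and 12.4 in TGEM, against 1261 and 1064 in LPM (log2 fold -5.98 ± 0.37, adjusted p = 1.6e-05). Lyve1 stood at 1.85 and 2.483 in TGEM, against 485 and 279.8 in LPM (log2 fold -6.87 ± 0.63). Retnla stood at 74.4 and 159 in TGEM, against 2173 and 660.4 in LPM, while the mannose receptor gene Mrc1 stood at 2069.7 and 1634 in TGEM, against 258 and 442 in LPM (log2 fold 2.44 ± 0.34). Mrc1 thus lay on the other side of 0 from Cd163. The beta-glucan receptor gene Clec7a stood at 13332 and 10123 in TGEM, against 1117 and 735 in LPM (log2 fold 3.68 ± 0.35). Cd274 (PD-L1) stood at 2098 and 1989 in TGEM, against 103 and 112 in LPM (log2 fold 4.24 ± 0.36). In this list 5 of 20 were called higher and 6 lower (3 to 5 in either direction without any 1 library).

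Iron, heme and NRF2 target genes were called higher at 15 of 23 members and lower at 1, Cd163, with a median log2 fold of 2.27 (11 to 14 higher without any 1 library). The ferritin genes Fth1 and Ftl1, which store iron, stood at 165060 and 128160 in TGEM, against 5291 and 1099.8 in LPM (log2 fold 5.91 ± 0.67) and at 57758 and 35668 in TGEM, against 4087 and 1768 in LPM (log2 fold 4.08 ± 0.46); ferritin has processed copies in the genome that can take its reads. Hmox1, which degrades heme, stood at 5092 and 3444 in TGEM, against 702 and 246 in LPM (log2 fold 3.33 ± 0.43). The transferrin receptor gene Tfrc stood at 6139.6 and 2895 in TGEM, against 202 and 193 in LPM (log2 fold 4.41 ± 0.40). All these were called higher. The cystine carrier gene Slc7a11 stood at 168 and 308 in TGEM, against 6.01 and 2.56 in LPM (log2 fold 5.52 ± 0.84). The exporter ferroportin (Slc40a1) differed between the TGEM libraries, at 103 and 9.93 in TGEM, against 10.7 and 1.53 in LPM, and did not pass.

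Glycolysis genes were called higher at 7 of 19 members and lower at 2 (4 to 7 higher and 0 to 1 lower without any 1 library). The 2 were Pdk1 and Gapdh, of which Gapdh has processed copies that can take its reads. The glucose carrier gene Slc2a1 stood at 997 and 1026 in TGEM, against 96.8 and 101 in LPM (log2 fold 3.34 ± 0.31). The hexokinase gene Hk3 stood at 8107 and 6890.2 in TGEM, against 679 and 446 in LPM (log2 fold 3.76 ± 0.34). Cell cycle genes leaned lower: 10 of 30 were called lower in TGEM and 1, Pcna, higher, with a median log2 fold of -1.70, but without any 1 library 1 to 5 were called lower. Mki67, the proliferation marker Ki-67, stood at 42.6 and 134 in TGEM, against 1707 and 1088 in LPM (log2 fold -4.15 ± 0.68). Top2a stood at 120.4 and 99.3 in TGEM, against 1109 and 947 in LPM (log2 fold -3.22 ± 0.65). The cyclin gene Ccnd1 stood at 109 and 142 in TGEM, against 3433 and 1284 in LPM (log2 fold -4.07 ± 0.45). Immediate early and stress genes were called higher at 6 of 25 and lower at 5 (5 to 6 higher and 1 to 3 lower without any 1 library). The shares over all tested genes were 12.6% higher and 14.4% lower. Egr2 stood at 1339 and 1254 in TGEM, against 9.35 and 10.2 in LPM (log2 fold 6.91 ± 0.41, adjusted p = 1.6e-05). Atf3 stood at 5268 and 5435 in TGEM, against 272 and 200.0 in LPM (log2 fold 4.51 ± 0.33), while Fos, at 539 and 255.75 in TGEM, against 453 and 209 in LPM, and Egr1, at 158 and 114 in TGEM, against 239 and 73.2 in LPM, did not pass.

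TGF-beta genes were called lower at 8 of 23 members and higher at 6 (3 to 8 lower and 1 to 5 higher without any 1 library). The ligand gene Tgfb2 and the latent-binding gene Ltbp1 fell (values above). So did the signal carrier gene Smad3, at 109 and 191 in TGEM, against 3516 and 4811 in LPM (log2 fold -4.82 ± 0.56). Tgfb1, at 3157 and 3801 in TGEM, against 1791 and 449 in LPM, did not pass. Ltbp2, at 57.8 and 107 in TGEM, against 2.67 and 5.12 in LPM (log2 fold 4.07 ± 0.74), was called higher. Retinoic acid genes were called higher at 5 of 18 and lower at 5 (4 to 5 higher and 2 to 4 lower without any 1 library). The receptor gene Rarb stood at 85.2 and 102 in TGEM, against 1315 and 2348 in LPM (log2 fold -4.22 ± 0.35, adjusted p = 6e-05). Rara stood at 148 and 201.12 in TGEM, against 1014 and 658 in LPM (log2 fold -2.24 ± 0.73). Rarg stood at 168 and 392.31 in TGEM, against 1366 and 748 in LPM (log2 fold -1.97 ± 0.64). These 3 receptor genes were called lower. The catabolic genes Cyp26a1 and Cyp26b1 stood at 4.44 and 0 in TGEM, against 75.4 and 98.2 in LPM and at 1.11 and 2.483 in TGEM, against 52.1 and 25.6 in LPM. Dhrs9, a retinol dehydrogenase, at 886 and 1509.6 in TGEM, against 10.7 and 13.8 in LPM (log2 fold 6.46 ± 0.79), and the transglutaminase gene Tgm2, at 1583 and 1741 in TGEM, against 75.4 and 68.0 in LPM (log2 fold 4.51 ± 0.46), rose.

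Among transcription factors of macrophages, 8 of 26 were called lower in TGEM and 5 higher (3 to 7 lower and 1 to 6 higher without any 1 library). Klf2 stood at 91.1 and 109 in TGEM, against 4568 and 1434 in LPM (log2 fold -4.67 ± 0.66). Nfe2 stood at 13.3 and 62.1 in TGEM, against 649.6 and 445 in LPM (log2 fold -4.16 ± 0.80). Both were called lower, as were Runx1 and Mef2c. Runx1 stood at 626 and 804 in TGEM, against 2244 and 3505 in LPM. Mef2c stood at 226 and 303 in TGEM, against 1138 and 1780.1 in LPM. On the other side, Irf8 stood at 1815 and 1904 in TGEM, against 829 and 499 in LPM (log2 fold 1.53 ± 0.35). Id3 stood at 643 and 69.5 in TGEM, against 26.7 and 8.70 in LPM (log2 fold 3.70 ± 0.73). Spi1, which encodes PU.1, at 3017 and 3151 in TGEM, against 1639 and 824 in LPM (log2 fold 1.41 ± 0.50, adjusted p = 0.065), did not pass. Cebpb did not pass either.

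The other populations place the 24 genes with the largest folds. Both SPM libraries lay above both TGEM libraries at all 12 genes that were lower in TGEM, with a median of 56.1% of the LPM mean; Timd4, for example, stood at 3309 and 3268 in SPM. Both BMDM libraries lay above both LPM libraries at all 12 genes that were higher in TGEM, at 1.85% to 43.9% of the TGEM mean (median 13.1%). Gpnmb stood at 83965 and 90635 in BMDM. These genes were mostly scarce in LPM, so lying above LPM is a low bar. Both SPM libraries passed it at 2 of the 12 and both microglia libraries at 1. At the 12 lower genes, both BMDM libraries lay above both TGEM libraries at 3. BMDM were cultured with M-CSF, per the labels. Microglia were above both TGEM libraries at 6 of the 12 lower genes; Mlxipl reached 2434 and 428 and Garnl3 1419 and 559 in microglia. In LPM of 2 other strains (NOD/ShiLtJ, SPRET/EiJ), 1 library each from another table, 12 (NOD/ShiLtJ) and 11 (SPRET/EiJ) of the 12 lower genes were above both TGEM libraries. The exception was Vmn2r26, at 1.27 in LPM of SPRET/EiJ and 2209 in LPM of NOD/ShiLtJ. Gpnmb stood at 1660 in LPM of SPRET/EiJ and at 15.8 in LPM of NOD/ShiLtJ.

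**Figure D4:**
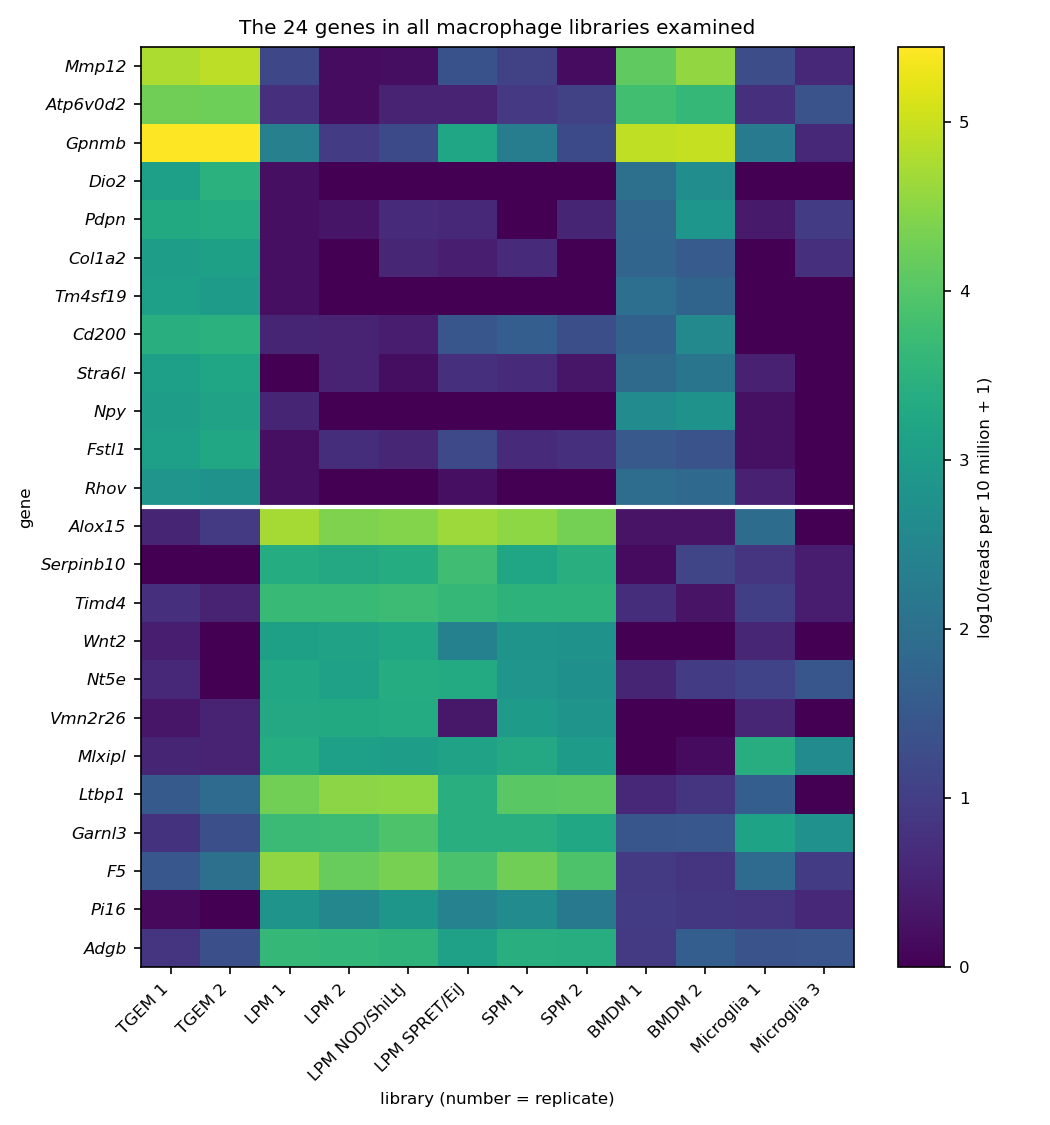
Rows are the 24 genes with the largest folds (12 higher in TGEM above the white line, 12 lower below it), columns the libraries, and the colour gives log10 of reads per 10000000 plus 1. BMDM columns are bright above the line and SPM and other LPM columns below it, with Vmn2r26 dark in LPM of SPRET/EiJ.

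Histone marks were mapped with 1 ChIP library per mark and population, so they are described without a test. H3K27ac, a mark of active promoters and enhancers, was taken as present at a gene where a deposited region overlapped 1 kb either side of the start. The lists hold 35121 regions in TGEM and 24422 in LPM, covering 77666610 and 43041653 bases, and the antibody came from Abcam in TGEM and from Active Motif in LPM, and these differences cannot be told apart from the populations. Over all tested genes, 59.1% had a region in the TGEM list and 47.9% in the LPM list. Of genes called higher in TGEM, 78.5% had a region in the TGEM list and 58.3% in the LPM list; 20.4% had one in the TGEM list alone and 0.170% in the LPM list alone, against 12.8% and 1.69% of all tested genes. Of genes called lower, 68.4% had one in the TGEM list and 64.0% in the LPM list, 9.86% in the TGEM list alone and 5.51% in the LPM list alone.

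**Figure D5:**
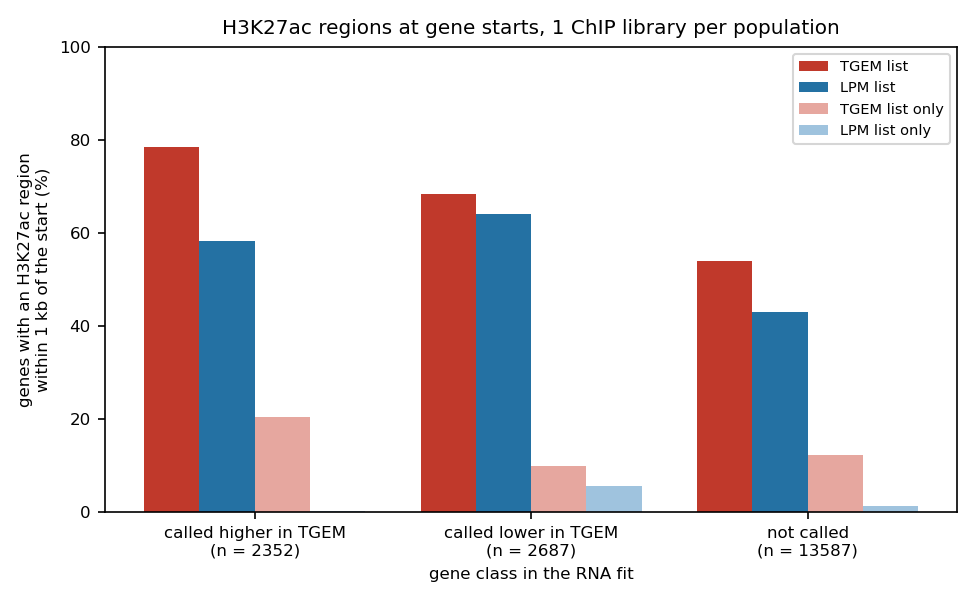
Bars give the percentage of genes of each class (horizontal axis, with their number) that had an H3K27ac region within 1 kb of the start in the TGEM list, the LPM list, the TGEM list only and the LPM list only, from 1 ChIP library per population. The LPM-only share is 5.51% at genes called lower in TGEM and 0.170% at genes called higher.

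At the 12 genes with the largest positive folds, 11 had an H3K27ac region in the TGEM list and 0 in the LPM list; the exception was Col1a2, with none in either. The Gpnmb region in TGEM spanned 30050 bases and ranked in the top 0.0598% of its list by the authors' score, the Atp6v0d2 region in the top 0.456% and the Mmp12 region in the top 0.917%, while that of Fstl1 ranked at 84.1%. At the 12 genes with the largest negative folds, 8 had a region in the LPM list and 2 (F5 and Pi16) in the TGEM list. The Alox15 region in LPM spanned 10327 bases and ranked at 1.92%, and that of Timd4 at 14.6%. Gata6 had a region in the LPM list, ranked at 6.06%, and none in the TGEM list. All 28 lysosomal genes had a region in the TGEM list and 23 in the LPM list.

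H3K4me2, which marks open promoters and enhancers, was present at 84.1% of genes called higher in TGEM in the TGEM list and 87.0% in the LPM list, and at 79.3% and 84.0% of genes called lower, against 68.8% and 73.1% of all tested genes. The H3K4me2 lists hold 60702 regions in TGEM and 46543 in LPM. This difference between the lists cannot be told apart from the populations. PU.1, the factor that all macrophages need, had peaks within 10 kb of the transcript at 91.8% of genes called higher in the TGEM list and 88.8% in the LPM list, and at 91.7% and 93.1% of genes called lower, against 83.7% and 82.6% of all tested genes. The TGEM list held more peaks than the LPM list at 10 of the 12 genes with the largest positive folds, and fewer at 11 of the 12 with the largest negative folds. Peak numbers were not compared in this way over all tested genes, so whether these counts are particular to these genes was not tested. Mmp12 had 3 in each list, Serpinb10 4 in each and Col1a2 0 in each, and Alox15 had 1 in TGEM and 2 in LPM. Also among the genes counted, Gpnmb had 11 in TGEM and 3 in LPM, Atp6v0d2 17 and 9, Timd4 1 and 9, and the long gene Ltbp1 9 and 50. Gata6, which was not among them, had 1 in TGEM and 6 in LPM. The PU.1 lists are of similar length (70436 peaks in TGEM and 65261 in LPM).

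The promoters of 2 marker genes are shown because RNA and chromatin bear on them together. That of Gpnmb, at chr6:49036268-49036517 (plus strand), lies at the H3K27ac region found in TGEM, and that of Timd4, at chr11:46810549-46810798 (plus), holds a PU.1 peak in both lists, ranked at 76.3% in TGEM and 12.4% in LPM. Both are the 250 bases before the start from RefSeq (GRCm38.p6), 5′ to 3′.
Gpnmb: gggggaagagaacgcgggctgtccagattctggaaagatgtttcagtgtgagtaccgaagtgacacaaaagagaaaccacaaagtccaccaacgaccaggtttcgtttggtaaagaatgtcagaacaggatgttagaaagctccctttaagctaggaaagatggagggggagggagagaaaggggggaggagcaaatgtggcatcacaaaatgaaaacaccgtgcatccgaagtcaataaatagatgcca
Timd4: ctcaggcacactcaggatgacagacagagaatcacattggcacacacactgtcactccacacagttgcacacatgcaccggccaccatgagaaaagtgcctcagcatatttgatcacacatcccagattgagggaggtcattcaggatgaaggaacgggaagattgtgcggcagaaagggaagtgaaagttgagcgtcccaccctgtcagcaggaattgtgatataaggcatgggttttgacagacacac
Neither holds the E-box, PU.1 or GATA letters named above on either strand, so both are in lower case throughout.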

How the data were processed

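RNA was measured as gene signal that the authors deposited as reads scaled to 10000000 mapped reads in each library (per the file headers), with 1 line per transcript. STAR, Bowtie, HOMER and the build mm10 are named in the submitters' processing notes, without versions; whether counting used strand is not stated there. The header states what 1 read is worth, and 100% of the values came out as whole reads within 0.1. The length given equals the full span for 99.59% of transcripts, so introns were counted. The region and peak lists carry a deposited score of unstated scale, used only to rank within a list.

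The longest transcript per symbol was kept, and chromosomes X and Y were left out. limma 3.58.1 (R 4.3.3) was fitted with a mean-variance trend to log2(value + 1) in 10 C57BL6/J libraries (BMDM, LPM, SPM, microglia and TGEM, 2 each), with population and deposited table as terms (4 residual degrees of freedom). Genes with a value of at least 1 in at least 1 library were tested, with Benjamini-Hochberg adjustment over all of them. edgeR 4.0.16 on the recovered reads was an alternative. The fit was first tested on simulated data. Each ChIP mark had 1 library per population, and input libraries were not used.

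The members and lists were chosen with earlier results of these data known. Named genes are 4 given markers, the 12 genes with the largest fold in each direction (called, mean of at least 100 in the higher population, no overlap), and from each list up to 4 called members with the largest fold and up to 2 uncalled members with the highest mean. Other list members named in the text were chosen after their values were seen. Some members of the lists are not reported here by name.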

Additional observations from a re-analysis of the deposited data

Results flagged for a closer look

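Xist lies on the X chromosome and so outside the comparison, but its signal in TGEM replicate 2 was 1738 reads per 10000000, against 1.48 in TGEM replicate 1 and 57.4 and 4.60 in LPM. That library also held Ddx3y, from the Y chromosome, at 186, against 835 in TGEM replicate 1 and 1293 and 993 in LPM. Whether the library holds RNA of animals of both sexes was not tested.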

How the results depend on the processing

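Leaving out any 1 library gave 1518 to 4288 genes called, 668 to 2314 higher and 850 to 2503 lower in TGEM, with the remaining lone library assumed to vary like the other populations. The share of higher calls also moved: 1332 were higher and 2503 lower without TGEM replicate 2, and 2314 higher and 1974 lower without TGEM replicate 1, with the median log2 fold of genes averaging at least 50 at -0.16 and 0.20. In a fit with no replicate block (table not in the model), 1901 genes were called higher and 2448 lower. With the 2 TGEM libraries exchanged in the block, an alternative chosen after seeing the data, 2413 were higher and 2890 lower; the deviations of same-numbered TGEM and LPM libraries had a correlation of -0.02 across genes, so the numbers give no pairing. The other alternatives stayed within 1.5 times the counts given, among them edgeR with TMM (2705 higher, 2801 lower) and the 4 libraries alone (2631 higher, 3170 lower). Among the 190 genes named by rule, the direction reversed at 0 of those called in the main fit. Uncalled ones could change sign: the log2 fold of Laptm5 ran from -0.42 to 0.95 over the alternatives. Each of the 24 genes with the largest folds kept its call under every alternative. Of the 190, 35 lost a call under at least 1, and uncalled genes had none to lose. With a 5 kb window, the share of genes called higher with an H3K27ac region was 81.8% in the TGEM list and 62.2% in the LPM list, and of genes called lower 72.7% and 69.4%. With the regions above the median score of each list, the shares were 69.9% and 41.3% for genes called higher, and 53.4% and 45.4% for genes called lower. The cause of these moves was not tested, and TGEM replicate 2, with 4030000 reads, limits low genes most.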
